A study of Mus musculus with 16 samples.

Results

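The genes of the cytosolic ribosomal proteins were examined in mouse granulosa cells (mGCs), which nurse the oocyte and make estrogen inside the follicle. The members were all protein-coding genes named Rpl or Rps with a number and, where present, one of the endings of the known paralogs (a, x, l, l1, al), together with Rplp0, Rplp1, Rplp2 and Rpsa. This rule found 83 of the 57010 genes in the count tables, of which 21848 were protein-coding. The large subunit had 52 of these genes and the small subunit 31. Rps3a1, Fau and Rack1 also encode ribosomal components but have other kinds of names, and they were counted separately.

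A ribosome is built from ribosomal RNAs and one copy of most ribosomal proteins, so cells hold the mRNAs of these genes at high and coordinated levels. Many of these mRNAs begin with a terminal oligopyrimidine (TOP) tract, a cytosine followed by a run of pyrimidines, through which the mTOR kinase and the RNA-binding protein LARP1 control their translation. Mammalian genomes also hold many processed pseudogenes of ribosomal protein genes, which are intronless copies made by reverse transcription of their mRNAs. In the follicle, granulosa cells grow and multiply under gonadotropins before ovulation, which needs a large supply of ribosomes.

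All mice were females of the outbred ICR stock, 6 weeks old when they entered the study. Con-mGC were freshly isolated mGCs of 5 mice after sham surgery, and EM-mGC were freshly isolated mGCs of 5 mice with endometriosis made by implanting endometrium of donor ICR mice onto the intestinal mesentery. The recipients kept their ovaries and received estradiol after surgery, then a washout and ovulation induction with gonadotropins, and whether sham mice also received estradiol is not given in the sources used here. For the culture experiment, mGCs of 6 EM mice were split and kept in DMEM/F12 medium with 5% fetal bovine serum. The PBS group (3 libraries) received PBS as vehicle and the EET group (3 libraries) 100 nM 14,15-EET, an epoxide of arachidonic acid, for 24 h, which may have followed a first 24 h in medium alone, since the descriptions differ on this. The study describes the cultured libraries as paired replicates without saying which belong together, and each fresh library came from its own mouse. The model is an allograft with exogenous estrogen in its course, and no cultured cells of sham mice were sequenced.

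Total counts were 14229123 to 15999234 in the 10 fresh libraries and 21384686 to 29482826 in the 6 cultured libraries. Markers of granulosa cells were detected in every fresh library, and all 9 averaged at least 1 CPM (counts scaled to the size of the library) in both groups. Their summed level was 10088 to 13995 CPM in Con-mGC and 5112 to 17870 in EM-mGC. Marker values are given without TMM factors, whereas the CPM values further on include them. Markers of other cells were present in the fresh libraries as well: the summed red blood cell genes were 3916 to 6221 CPM in Con-mGC and 2673 to 14621 in EM-mGC, and the summed leukocyte genes 192 to 379 and 271 to 561. In culture, 7 of the 9 granulosa markers averaged at least 1 CPM, Cyp19a1 (aromatase, which makes estrogen) was at 0 to 0.325 CPM, and red blood cell genes summed to less than 1 CPM in all libraries. EM replicate 3 stood apart, with 21.8% of its counts on mitochondrially encoded genes against 6.76 to 11.1% in the other 9 fresh libraries and the highest red blood cell and leukocyte sums. In these bulk samples, fewer cells of a type and less RNA per cell cannot be told apart.

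The start sites of these genes were examined first, since the members moved together across libraries, as described further on. RefSeq promoter windows on GRCm38.p6, each running 250 bases upstream and 50 bases downstream of a start, were found for 63 of the 83 genes. A TOP tract, taken as C followed by at least 4 C or T on the sense strand, began exactly at an annotated start in 13 of these 63 genes (20.6%), against 2.83% of 15716 protein-coding genes with a window. Within 5 bases of the start, a tract was present in 29 members (46.0%) against 22.5% of coding genes. The CCGGAAG motif, read by transcription factors of the ETS family, was found on either strand in 39.7% of members and 14.0% of coding genes, AAGATGGC, which is part of the YY1 motif, in 9.52% and 3.79%, and GGGCGG, the core of the SP1 motif, in 61.9% and 53.8%. TATAAA lay 20 to 40 bases upstream in 1.59% of members and 3.06% of coding genes. These shares describe letters in the windows and not sites in use.

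The 7 windows of 30 bases shown here have a tract exactly at the start, and they were picked because their genes carry results below. Rplp2 rose in culture, and Rps18, Rpl35a, Rps27, Rpl28 and Rps10 fell in culture on their own rows. Rpl38 had one of the largest log2 fold changes of EM-mGC against Con-mGC and was not called. Each window begins 8 bases before the RefSeq start and is written 5′ to 3′ on the sense strand, with the TOP tract in capitals.
Rplp2, chr7:141447643-141447672, plus strand: gcgtcttcCTTTCgccgccggacgccgccg
Rpl38, chr11:114668572-114668601, plus strand: gcctcgttCTTTCCCCgttctcttcggttc
Rpl28, chr7:4792957-4792986, plus strand: tcgtgtctCTCTTTCCgtctccggccgcca
Rpl35a, chr16:33056474-33056503, plus strand: ttgccttcCTCTTTCCgccatcttggcgcc
Rps27, chr3:90213627-90213656, minus strand: ctttcgctCCTTTCCggcggtgacgacctc
Rps18, chr17:33955644-33955673, minus strand: cttccgctCTCTCTTCCacaggaggcctac
Rps10, chr17:27635223-27635252, minus strand: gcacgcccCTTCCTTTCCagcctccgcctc
The tracts of these 7 starts were 5 to 10 bases long, and genes with a tract at the start were found both among those higher and among those lower in culture.

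The members took 2.40 to 3.15% of all counts in Con-mGC (2.66% ± 0.303, SD, n = 5), 2.68 to 3.59% in EM-mGC (2.99% ± 0.385, n = 5), 2.64 to 2.94% in the PBS group (2.82% ± 0.159, n = 3) and 2.75 to 2.97% in the EET group (2.83% ± 0.121, n = 3). The ranges of all 4 groups overlapped. The library with the highest share in each fresh group, Con replicate 1 at 3.15% and EM replicate 3 at 3.59%, was also the one with the highest mitochondrial share in its group, 11.1% and 21.8%, and EM replicate 4 was second in both (3.16% and 11.1%). The part of the mitochondrial share in this spread was not tested. Large subunit genes had 1.58 ± 0.0205 times the counts of small subunit genes in Con-mGC, 1.54 ± 0.0464 in EM-mGC, 1.603 ± 0.00189 in the PBS group and 1.601 ± 0.000511 in the EET group, and the lowest ratio was that of EM replicate 3, 1.47.

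**Figure D1:**
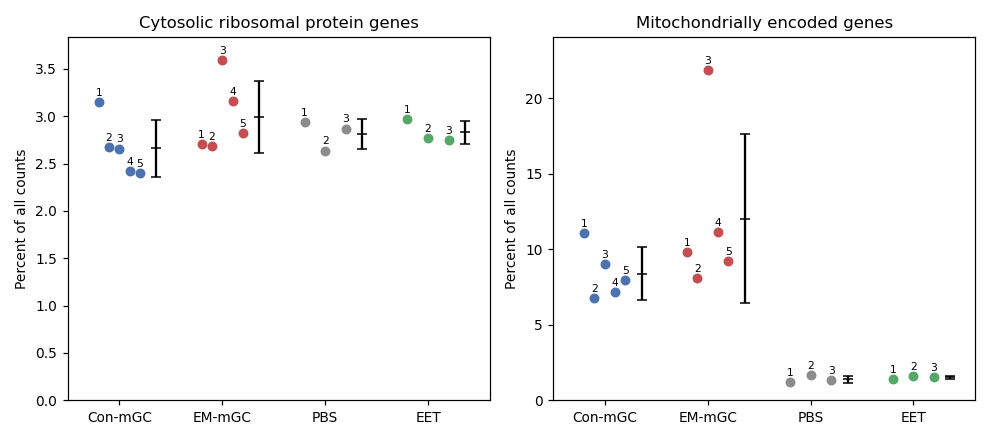
Share of all counts, in percent, on the 83 cytosolic ribosomal protein genes (left) and on mitochondrially encoded genes (right); each point is a library labelled with its replicate number, and the bars give the mean ± SD of the group. The member share lies between 2.40 and 3.59% in all groups, while the mitochondrial share is 1.18 to 1.64% in the 6 cultured libraries and 6.76 to 21.8% in the 10 fresh ones.

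Levels were compared between members per kilobase of the principal transcript, on the CPM scale. In Con-mGC, the highest were Rps15 (954 ± 181 CPM per kb, n = 5) and Rpl41 (937 ± 153), followed by Rpl4 (764 ± 117), Rplp1 (745 ± 117) and Rpl10a (744 ± 142), and neighbours in this order differed by less than their SD except Rpl41 and Rpl4. EM-mGC had Rpl41 (1170 ± 335) and Rps15 (1159 ± 243) at the top, with Rplp1, Rplp0 and Rps4x after them. In the PBS group the order was Rplp0 (1473 ± 136 CPM per kb, n = 3), Rplp1 (1335 ± 191), Rpl13 (1014 ± 86.7), Rps15 (961 ± 125) and Rpl41 (961 ± 132), and only the gap between Rplp1 and Rpl13 was larger than the SD of both. The EET group had the same 5 genes in the same order, led by Rplp0 at 1478 ± 91.2. Across the 83 genes, the rank correlation of their shares of the member counts was 0.996 between Con-mGC and EM-mGC, 0.998 between PBS and EET, and 0.946 to 0.952 between fresh and cultured groups, a description over genes that share libraries.

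At the other end were genes of proteins that every ribosome carries. Rpl24, a large subunit protein, had 0.0658 to 1.96 CPM in Con-mGC and 1 to 32 counts in any of the 16 libraries, and Rps10, a small subunit protein at the mRNA entry side, had 5.98 to 12.9 CPM. Rpl21, Rpl29 and Rpl34 lay at 15.7 to 24.1, 10.2 to 15.7 and 23.5 to 34.4 CPM, and Rpl13a at 33.7 to 39.6 CPM. The tables also list pseudogenes as rows of their own, and 1583 pseudogene rows were matched by sequence to the coding sequence of a member (at least 80% identity over at least 80% of its length), so that 80 of the 83 members had at least 1 match, with a median of 14 rows per member, and 76 had a match of at least 95% identity. Only Rpl8, Rpl3l and Rpl39l had none. Reads on the matched rows were 10.8 to 12.4% of the reads on members and matched rows together in every library.

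These reads were concentrated on a few members. For 8 genes the matched pseudogene rows held more reads than the gene itself: Rps10 (93.6% of the reads on both), Rpl34 (89.97%), Rpl29 (86.6%), Rps2 (85.4%), Rpl26 (85.3%), Rpl24 (83.0%), Rpl21 (63.4%) and Rpl30 (55.3%). The 6 genes at or above 80% had a median level of 29.6 CPM per kb in Con-mGC, the 11 genes from 20 to 80% a median of 252, the 20 genes from 5 to 20% a median of 322, and the 46 genes under 5% a median of 424. Reads on the own row enter both the level and the percent, so a lower own row by itself gives a higher percent. The class from 5 to 20% reached down to 35.4 CPM per kb with Rpl13a, which had 6.01% of its reads on pseudogene rows. The class under 5% reached down to 0.0542 CPM per kb, since it holds the tissue-restricted paralogs Rpl3l and Rpl10l. How reads with more than one best position were counted, if at all, is not given in the sources used here. For a gene with many reads on pseudogene rows, a low level cannot be told apart from reads placed on its copies or not counted. With the matched rows added, Rpl26 had 371 to 492 CPM in Con-mGC, but Rpl21 only 39.4 to 70.0. For Rpl24, the pseudogene row with most reads held 833 over all 16 libraries, beside 288 on its own row.

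**Figure D2:**
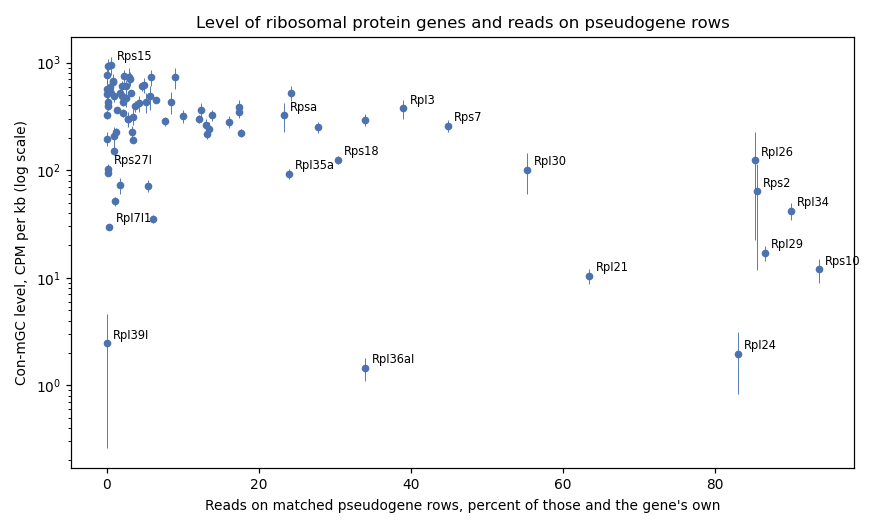
Level of each ribosomal protein gene on its own row in Con-mGC (CPM per kb of transcript, log scale; points are means and bars SD over 5 libraries; genes averaging at least 1 CPM) against the percent of its reads, gene and matched pseudogene rows together, that lay on pseudogene rows in all 16 libraries. Reads on the own row enter both axes, so a lower level by itself gives a higher percent. The 6 genes past 80% all lie below 130 CPM per kb. The 46 genes under 5%, which include Rpl3l and Rpl10l, not shown here, have a median of 424.

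The likeness of gene and pseudogene was read from the GENCODE vM21 transcripts (GRCm38.p6) for the matched pseudogene with most reads, and the few differing bases are shown because they are all that separates the reads of the pair within the coding sequence. These are reference sequences and not those of the ICR mice. Positions count from the A of the start codon, with the base of the gene first and that of the pseudogene last. Rpsa (chr9:119956755-119961435, plus strand, coordinates of this and the following genes as in the tables, on GRCm39), which encodes a small subunit protein also described as a laminin receptor, differed from Rpsa-ps10 (chr3:149778295-149779179, minus strand) by 6 substitutions in 885 coding bases: C25A, T210C, C219T, C345G, C696T and G858A. Rps2 (chr17:24937090-24940903, plus strand), a small subunit protein, differed from Rps2-ps13 (chrX:51987465-51988346, plus strand) by 7 substitutions in 879 bases. Rpl26 (chr11:68792409-68797815, plus strand), a large subunit protein that also binds the mRNA of p53, differed from the pseudogene Gm15772 (chr5:3286431-3286868, plus strand) by C177T and T288C in 435 bases, and Rpl30 (chr15:34440651-34443786, minus strand) from Gm12191 (chr11:49569537-49569884, minus strand) by G96A alone in 345 bases. Of all stretches as long as a read (150 bases) within the coding sequence, 33.7% were identical in the Rpsa pair, 20.96% in the Rps2 pair, 9.44% in the Rpl26 pair and 51.0% in the Rpl30 pair. These shares are of single reads. The libraries had paired reads, and the second read and the untranslated ends were not taken into account. The stretches of 30 coding bases around the first difference of each pair are written below, with the differing base in capitals.
Rpsa, coding bases 10 to 39: gcccttgacgtcctgCagatgaaggaggag
Rpsa-ps10, the same stretch: gcccttgacgtcctgAagatgaaggaggag
Rps2, coding bases 45 to 74: gggcccaggattaggTggccgcggcggctt
Rps2-ps13, the same stretch: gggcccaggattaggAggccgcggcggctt
Rpl26, coding bases 162 to 191: agttcaggttgttcgCggacactacaaagg
Gm15772, the same stretch: agttcaggttgttcgTggacactacaaagg
Rpl30, coding bases 81 to 110: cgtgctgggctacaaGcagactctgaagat
Gm12191, the same stretch: cgtgctgggctacaaAcagactctgaagat

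The division of reads between gene and pseudogene differed from mouse to mouse. Rps2 on its own row was 152, 35.2, 106, 27.6 and 26.85 CPM in Con replicates 1 to 5 and 169, 32.1, 58.4, 185 and 35.2 CPM in EM replicates 1 to 5, while the sum with its pseudogene rows ran only from 350 to 564 CPM outside EM replicate 3 (773). Rpl26 was 185, 49.3, 54.4, 46.7 and 40.8 CPM in Con-mGC and 45.9, 47.8, 72.3, 139 and 172 CPM in EM-mGC. Con replicate 1 and EM replicate 4 were high on both rows, Con replicate 3 and EM replicate 1 on that of Rps2 only, and EM replicate 5 on that of Rpl26 only.

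For Rpsa, the pseudogene rows fell into separate ranges. Its matched pseudogene rows summed to 232, 298, 251, 34.3 and 252 CPM in Con replicates 1 to 5 and to 439, 41.5, 75.7, 50.9 and 316 CPM in EM replicates 1 to 5. Con replicate 4 and EM replicates 2, 3 and 4 were at 75.7 CPM or less and the other 6 libraries at 232 CPM or more. The gene's own row was 633, 753, 1482 and 991 CPM in those 4 libraries. In the other 6 it was 944, 525, 578 and 454 CPM in Con replicates 1, 2, 3 and 5 and 441 and 545 CPM in EM replicates 1 and 5, so that Con replicate 1 was high on both. Rpl30 varied from 39.1 to 132 CPM in Con-mGC and from 44.2 to 190 in EM-mGC.

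Summing gene and pseudogene rows narrowed these spreads. The coefficient of variation over the 10 fresh libraries (within-group SD over the mean) went from 80.3 to 26.2% for Rps2, from 69.6 to 17.6% for Rpl26, from 48.8 to 19.3% for Rpl30 and from 43.9 to 28.0% for Rpsa, where the median over the 81 members averaging at least 1 CPM was 19.9%. In the 6 cultured libraries, which came from 6 mice in all, it was 8.80% for Rps2, 9.08% for Rpl26, 2.98% for Rpl30 and 6.38% for Rpsa without any summing, against a median of 6.54%. These 4 genes were chosen after their values were seen, and the sum did not narrow the spread of every member: for Rpl21 it went from 13.1 to 52.7%. What sets the division of reads was not tested.

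**Figure D3:**
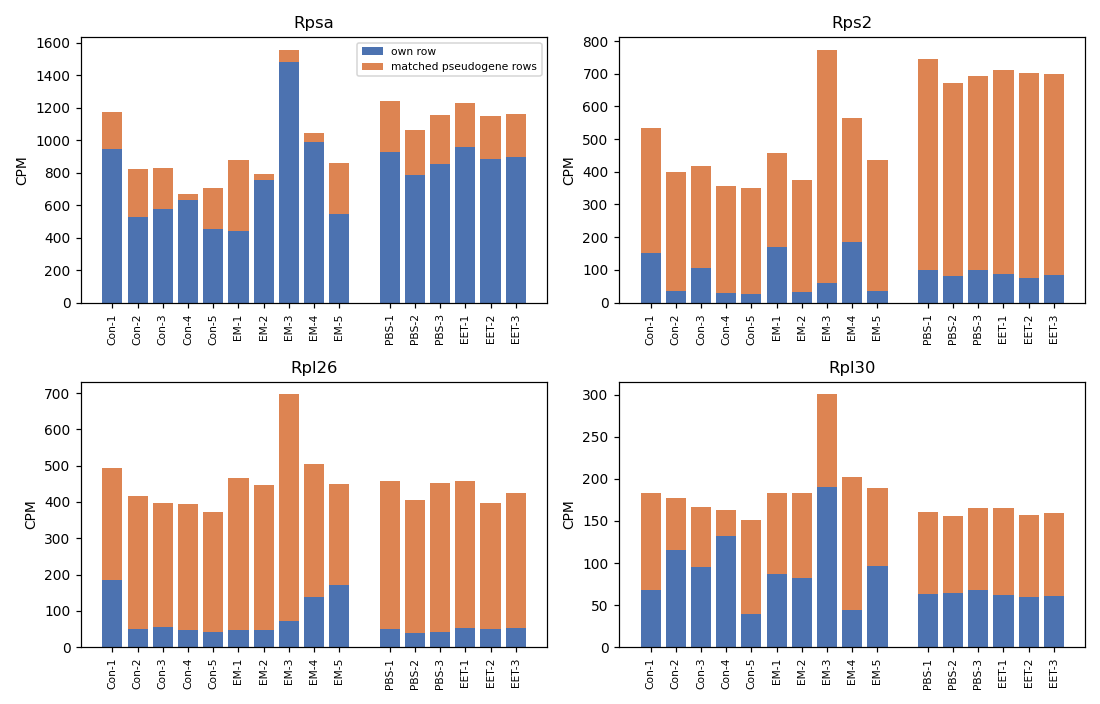
Stacked bars of CPM in each of the 16 libraries for Rpsa, Rps2, Rpl26 and Rpl30, with reads on the gene's own row in blue and reads on its matched pseudogene rows in orange. The blue part changes between the fresh mice more than the whole bar does, and is nearly level among the 6 cultured libraries.

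The members rose and fell together between libraries of one group. After the group means were removed, the Pearson correlation between 2 members had a median of 0.847 over the 10 fresh libraries, against −0.003 over all pairs of 17229 tested genes, and 0.774 over the 6 cultured libraries, against −9.5e-05 over 15050 genes. With only the members that had under 20% of their reads on pseudogene rows, the median was 0.905 among 64 genes and 0.873 among 63. The points share libraries and depth, and the values are descriptions. Among the fresh libraries EM replicate 3 deviated most, with its median member at 0.59 (log2) from the mean of the 10. Its part in these correlations was not tested. In fresh mGCs 53 of 81 members correlated above 0.9 with the mean of all members, which includes the member itself. The 9 members below 0.5 were Rps2, Rpl26, Rpl30, Rpl21, Rps10, Rpl24, Rpl13a, Rps27a and Rpl39l. In culture 48 of 80 were above 0.9 and 19 below 0.5, among them Rps13 at −0.862, Rpl23a at −0.817 and Rpl15 at −0.734.

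The protein-coding genes outside the rule whose deviations were most like the mean of the members over the 10 fresh libraries were Rps3a1 (r = 0.988), itself a small subunit gene, Eef1b2 (0.986), a subunit of the elongation factor that reloads EF1A, Ufm1 (0.985), a ubiquitin-like modifier that is attached to a ribosomal protein, D8Ertd738e (0.983) and 2310039H08Rik (0.979). Over the 6 cultured libraries they were Rnh1 (0.9995), the ribonuclease inhibitor, Park7 (0.999), Eif4ebp1 (0.998), a repressor of cap-dependent translation under mTOR, C1qtnf4 (0.998) and Ptpn1 (0.998). With 6 libraries in 2 groups these values rest on few points.

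The first comparison asked how mGCs of EM mice differed from those of sham mice. Ribosomal protein genes were a little higher in EM-mGC as a group, and none was called. The median log2 fold change of the 81 members tested was 0.27 (about the same for the 50 of the large subunit, 0.26, and the 31 of the small subunit, 0.30), against −0.01 over all 17229 genes tested, and 75 of the 81 lay above 0 (92.6%, where 48.2% of all genes did). With edgeR (quasi-likelihood test, Benjamini-Hochberg adjusted) no member was called and no gene at all was (0.0%), with a smallest adjusted p of 0.462 among members. At an unadjusted p under 0.05, 14 members were higher and none lower, which is 17.3% of members beside 9.44% of all genes in either direction with 5.22% higher and 4.22% lower. DESeq2 called 0 members, with 22 at an unadjusted p under 0.05. Because the members move together, these counts of genes are not independent, and the comparison rests on 5 mice per group. In simulated counts the same test found 6 of 67 genes changed by 0.5 (log2), so small changes could go uncalled.

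The groups did not overlap for 3 members, all of them higher in EM-mGC (1.69% of all genes, 0.917% higher and 0.778% lower). Rps14, a small subunit protein, was 383, 438, 419, 399 and 391 CPM in Con replicates 1 to 5 and 446, 475, 899, 612 and 480 CPM in EM replicates 1 to 5, a log2 fold change of 0.52 ± 0.18 (SE, edgeR adjusted p = 0.462). The lowest EM value exceeded the highest Con value by a small margin only, and EM replicate 3 was far above the rest. Rpl36 (131.5 to 149 CPM against 149.7 to 233) and Rpl18 (407 to 497 against 500 to 781) were the others, with log2 fold changes of 0.37 ± 0.13 and 0.37 ± 0.14.

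The largest differences after Rps14 were those of Rpl38 (0.50 ± 0.19), a large subunit protein known for its role in skeletal patterning of the mouse embryo, Rps2 (0.47 ± 0.61, whose row varied as described above), Rpl39 (0.46 ± 0.17) and Rpsa (0.43 ± 0.31). With 1 library left out Rps2 ran from 0.085 to 0.98 and Rpsa from 0.12 to 0.63, and with pseudogene reads added they were at 0.35 and 0.29. Rpl38 was 108, 106, 100, 90.3 and 87.7 CPM in Con-mGC and 104, 116, 214, 156 and 107 CPM in EM-mGC, so that the groups overlapped through EM replicates 1 and 5. The lowest were Rpl39l (−0.46 ± 0.62; 0.23 without Con replicate 1), which was 0.750 to 5.00 CPM in Con-mGC and 0.418 to 2.56 in EM-mGC, and Rpl29, Rpl21, Rpl13a and Rpl24, between −0.05 and −0.02. Of these 4, Rpl29, Rpl21 and Rpl24 were above 0 once matched pseudogene reads were added (0.25, 0.29 and 0.11). None of the genes at either end passed the test.

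The following genes with known roles in regulation or disease all lay above 0, from 0.18 to 0.39 where the middle of the members ran from 0.20 to 0.33 (quartiles). Rps6, the substrate of S6 kinase, had a log2 fold change of 0.18 ± 0.14, and Rps3, at the mRNA entry channel, 0.33 ± 0.15. Rpl5 and Rpl11, which bind the p53 regulator MDM2 when ribosome assembly is disturbed, were at 0.22 ± 0.12 and 0.24 ± 0.14, and Rps19, mutated in Diamond-Blackfan anaemia, at 0.33 ± 0.15. The stalk proteins Rplp0, Rplp1 and Rplp2, which recruit the translation factors, were at 0.36 ± 0.21, 0.39 ± 0.23 and 0.36 ± 0.18. Rpl10, which is placed in the last steps of large subunit maturation, was at 0.25 ± 0.16. None of these values passed the test, and adjusted p ranged from 0.524 to 0.690.

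The shift was largest in one EM mouse. Relative to the mean of the 10 libraries, the median member deviated by 0.59 (log2) in EM replicate 3 and by 0.19 in EM replicate 4, by −0.05, −0.08 and −0.01 in the other 3 EM libraries, by 0.12 in Con replicate 1 and by −0.11 to −0.28 in the other 4 Con libraries. Without EM replicate 3 the median log2 fold change of the members was 0.13, with 9 members at an unadjusted p under 0.05, and without Con replicate 1 it was 0.36, with 45. Without Con replicate 4 or 5 there were 7 such members each, and none was called with any library left out. EM replicate 3 also had the highest mitochondrial, red blood cell and leukocyte values given above. Among 130 other coding genes with a principal transcript shorter than 600 bases, the median deviation in EM replicate 3 was 0.39, against 0.02 among 14148 longer ones. The 11 members with a coding length under 300 bases deviated by 0.76 there and the 70 others by 0.57, a split by coding length that is not the same as one by transcript length. The part of these features in the shift was not tested.

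**Figure D4:**
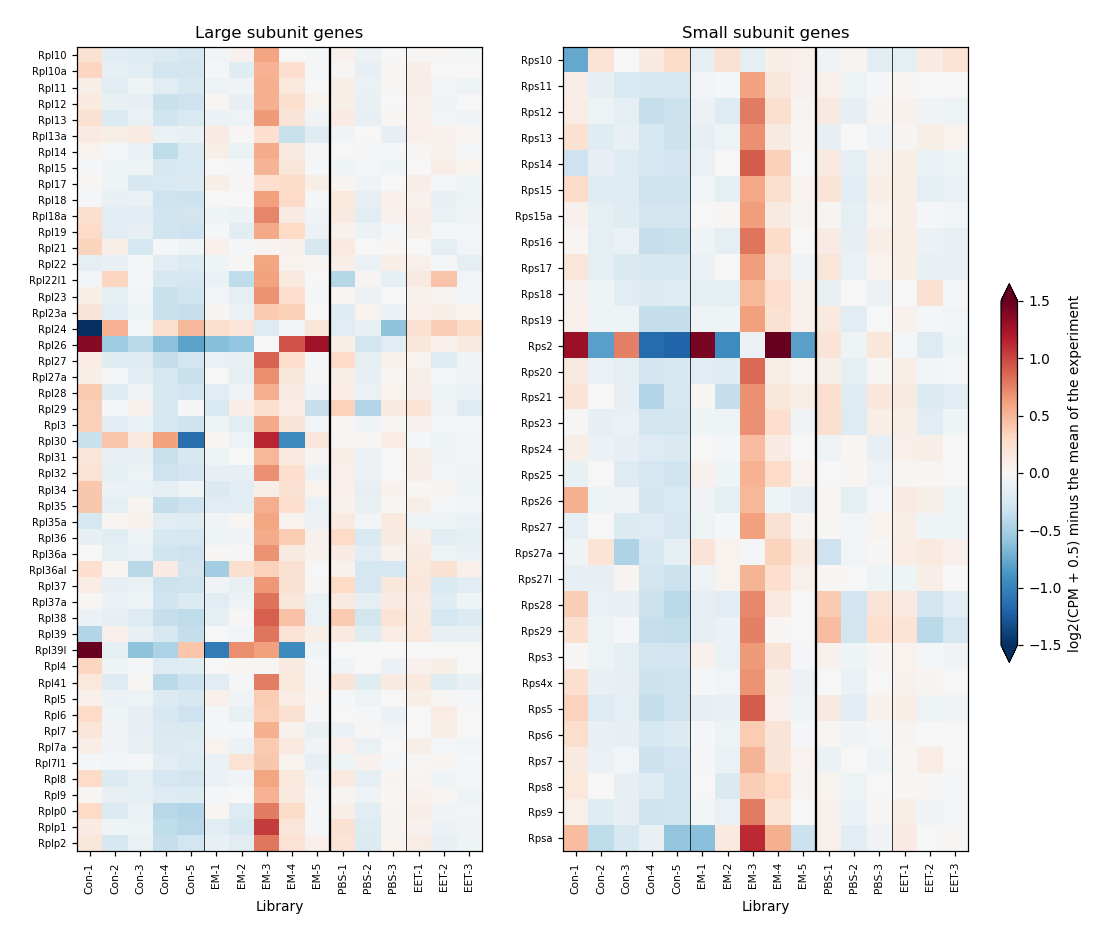
Ribosomal protein genes (rows; large subunit left, small subunit right; genes reaching at least 1 CPM) in the 16 libraries (columns), as log2(CPM + 0.5) minus the mean of the gene over the fresh or over the cultured libraries; thick lines divide the experiments and thin lines the groups. The column of EM replicate 3 is red for most genes (median deviation 0.59), Rps2, Rpl26, Rpl30 and Rpsa change between single mice, and the cultured columns are pale.

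Other genes of translation were set beside the members. Of the components outside the rule, Rps3a1 was at 0.26 ± 0.14, Rack1 at 0.30 ± 0.15 and Fau at 0.37 ± 0.16. Above 0 were all 7 tested elongation factor genes, with a median of 0.25, and 74 of the 77 tested genes of the mitochondrial ribosome, with a median of 0.14. Of 29 initiation factor genes 23 were above 0 (median 0.09), and of 68 genes of ribosome biogenesis 42 (median 0.04). All 10 tested genes of other TOP mRNAs were above 0 (median 0.14), led by Tpt1 (0.43). Their list shares Eef1a1 and Eef2 with the elongation factors, Pabpc1 with the initiation factors and Npm1 with the biogenesis genes. The 13 genes of the mTOR pathway and of LARP proteins had a median of −0.04. No gene of these lists was called, and the lists were chosen with earlier results known.

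The second comparison asked what 14,15-EET did to cultured mGCs of EM mice. The ribosomal protein genes were not called in either direction, and their median difference was near 0. The median log2 fold change of the 80 members tested was 0.004 (0.001 over all 15050 genes), and 43 lay above 0 (50.4% of all genes did). The same test called 184 genes (1.22%), and 0 of the 80 members, with a smallest adjusted p of 0.219. At an unadjusted p under 0.05 there were 7 members higher and 1 lower (10.0%; 12.4% of all genes, 6.03% higher and 6.38% lower), and DESeq2 called 0 with 9 at that level. The groups did not overlap for 13 members, 10 higher and 3 lower (16.2%; 17.6% of all genes, 8.48% higher and 9.17% lower). Leaving out 1 library gave 1 call at most, Rpl26 higher without PBS replicate 1 or Rps2 lower without PBS replicate 2, and the fit with the replicate number as a block called Rps29 lower (edgeR adjusted p = 0.034). Without a filter on low counts 6 members were called, 3 in each direction.

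Rpl24, named for its value although it averaged under 1 CPM, had the largest one, 0.427, 0.462 and 0.180 CPM in the PBS group and 0.714, 0.838 and 0.754 CPM in the EET group, a log2 fold change of 1.12 ± 0.37 (edgeR adjusted p = 0.219). It rested on few reads, and with the reads of its pseudogene rows it was 0.50 ± 0.22 (edgeR adjusted p = 0.383). Next were Rpl36al (0.41 ± 0.22), at 1.19 to 1.61 CPM against 1.63 to 1.87, and Rpl22l1 (0.35 ± 0.13), the paralog of Rpl22, at 17.8, 24.7 and 21.8 CPM in the PBS group and 26.5, 32.6 and 23.3 CPM in the EET group, which overlapped. Rpl26 (0.25 ± 0.08) was at −0.04 with pseudogene reads added, and Rps27a, a fusion of a ribosomal protein with ubiquitin, was 227, 276 and 287 CPM against 305, 314 and 299 (0.22 ± 0.07). Rpl23a was at 0.14 ± 0.06.

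At the lower end were Rps29 (−0.30), Rpl38 (−0.23), Rps28 (−0.21), Rps2 (−0.20) and Rpl35a (−0.17), none called. With pseudogene reads added, Rps2 was at −0.0009 and Rpl35a at −0.06, so neither stayed at the lower end. Rps29 was 145, 86.3 and 125 CPM in PBS replicates 1 to 3 and 121, 79.4 and 87.6 CPM in EET replicates 1 to 3. Rpl38 was 121, 75.7 and 106 CPM, and 101, 76.1 and 79.6 CPM, and Rps28 231, 143 and 201 CPM, and 194, 144 and 157 CPM. All 3 genes were thus high in PBS replicates 1 and 3 and EET replicate 1 and low in the other 3 libraries, and the groups overlapped.

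These genes have among the shortest coding sequences of the group. The median of the 10 tested members with a coding length under 300 bases deviated from the mean of the 6 libraries by 0.22, −0.19 and 0.15 in PBS replicates 1 to 3 and by 0.14, −0.19 and −0.13 in EET replicates 1 to 3. Among 111 other coding genes with a transcript under 600 bases the deviations were 0.12, −0.08 and 0.07, and 0.06, −0.08 and −0.09, and thus had the same sign in each library, while those of 12620 longer ones ran from −0.00095 to 0.0024. The 10 short members had a median log2 fold change of −0.13 and the 70 longer ones of 0.01. Transcript length moved with these values, and its part was not tested.

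The stalk genes Rplp0 (0.005 ± 0.072), Rplp1 (−0.05 ± 0.09) and Rplp2 (−0.05 ± 0.09) and the genes Rps6 (0.02 ± 0.05), Rps3 (−0.01 ± 0.05), Rps19 (0.001 ± 0.069), Rpl5 (0.07 ± 0.05), Rpl11 (−0.01 ± 0.06) and Rpl10 (0.01 ± 0.05) all had log2 fold changes within 0.1 of 0, and Rpsa was at 0.09 ± 0.06. Of the related lists, none had a called gene. The median was 0.04 for 68 biogenesis genes, of which 47 lay above 0, 0.05 for 29 initiation factors, 0.02 for 7 elongation factors, 0.003 for 77 genes of the mitochondrial ribosome and 0.007 for 12 genes of the mTOR pathway.

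The PBS group was set against EM-mGC to see how the group differed between fresh and cultured cells of EM mice. The 2 sets come from different experiments, so culture cannot be told apart from mouse, batch and depth, and the loss of red blood cell, leukocyte and oocyte markers in culture moves with it. A smaller share of the ribosomal protein genes than of all genes was called: 23 of 81 members (28.4%) were called, 10 higher and 13 lower, where 11937 of 17301 genes were (69.0%; 31.1% higher and 37.9% lower). The median log2 fold change was 0.01 for the members and −0.11 for all genes, and 41 members lay above 0 (46.1% of all genes did). Without EM replicate 3 there were 40 calls (27 higher, 13 lower), and without PBS replicates 1, 2 and 3 there were 14, 15 and 14. Both medians depend on the scaling: with upper-quartile factors they were −0.24 and −0.36, with 3 members higher and 25 lower, and with factors from nuclear coding genes other than the members they were −0.08 and −0.20.

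The 3 stalk genes were all called higher, but the calls of Rplp1 and Rplp2 were lost when single libraries were left out. On the scale of the joint fit, Rplp0 was 1012, 849, 1741, 1200 and 968 CPM in EM replicates 1 to 5 and 2389, 2003 and 2293 CPM in PBS replicates 1 to 3, a log2 fold change of 0.95 ± 0.23 (edgeR adjusted p = 0.00427), with no overlap. Rplp1 was 310 to 791 CPM against 636 to 846 (0.74 ± 0.29, edgeR adjusted p = 0.0432) and Rplp2 168 to 337 against 299 to 396 (0.67 ± 0.22, edgeR adjusted p = 0.0208), and for both EM replicate 3 lay within the PBS range. With upper-quartile factors only Rplp0, Rps12 and Rps27l kept their higher call, and with matched pseudogene reads Rplp1 and Rps26 lost theirs (Rplp1 0.69 ± 0.29, edgeR adjusted p = 0.0572). Rplp1 also lost its call without any 1 of EM replicates 1, 2, 4 and 5 or PBS replicates 1, 2 and 3, and with factors from other nuclear coding genes or from protein-coding genes only, and Rplp2 lost its call without EM replicate 5, PBS replicate 1 or PBS replicate 3. With 1 library left out their values ran from 0.61 to 1.03 and from 0.56 to 0.86. As a share of the counts on all members, which needs no scaling between libraries, Rplp0 was 4.01% ± 0.298 in EM-mGC and 7.08% ± 0.209 in the PBS group, Rplp1 1.52% ± 0.276 and 2.35% ± 0.188, and Rplp2 0.766% ± 0.0592 and 1.11% ± 0.0853. The other genes higher in culture were Rps12 (0.88 ± 0.21), a small subunit protein, Rpl8 (0.63 ± 0.19), a large subunit protein near the catalytic centre, Rps27l (0.61 ± 0.14), Rpl36, Rpl13, Rps26 and Rpl13a. Rps12 was 176 to 359 CPM in EM-mGC and 393 to 470 CPM in the PBS group. Rps26 lost its call without any 1 of EM replicates 1, 2, 4 and 5 or PBS replicates 1, 2 and 3. The call of Rpl13 was lost without EM replicate 1, 2 or 5 or PBS replicate 1 or 3. That of Rpl13a was lost without EM replicate 5 or PBS replicate 2, and that of Rpl36 without PBS replicate 1 or 3.

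Of the genes that fell, Rps18, a protein of the head of the small subunit, was 62.1, 61.2, 98.6, 82.5 and 71.6 CPM in EM-mGC and 24.2, 26.2 and 24.4 CPM in the PBS group (log2 fold change −1.59 ± 0.17, edgeR adjusted p = 2.43e-05). With the reads of its pseudogene rows the value was −0.72 ± 0.20 (edgeR adjusted p = 0.0083). Rpl35a, a large subunit protein, was 43.93 to 72.04 CPM against 16.8 to 19.2 (−1.48 ± 0.18), and −1.24 ± 0.17 with pseudogene reads. Rps27, a zinc finger protein of the small subunit, was 181 to 299 CPM against 110 to 117 (−0.93 ± 0.17), with 0.351% of its reads on pseudogene rows. These 3 genes were separated from the EM-mGC range in every PBS library. Rpl24 (−1.59 ± 0.38), at 0.924 to 1.39 CPM against 0.1998 to 0.516, was low in both groups. Rpl39l had 6 to 39 counts in the 5 EM libraries and 0 in all 6 cultured ones, and was at least 9.73-fold lower in the PBS group, taking 3 counts in the smallest PBS library as the limit. It was no longer called without EM replicate 2, 3 or 5. Also called lower were Rpl21, Rps10, Rpl22l1, Rpl28, Rpl22, Rpl34, Rpl31 and Rps24. The calls of Rpl28, Rpl31 and Rps24 were lost without any 1 of the 3 PBS libraries, and that of Rpl34 without PBS replicate 2.

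For 2 of these genes the direction was that of the row only. Rpl34 was called lower on its own row (−0.47 ± 0.14, edgeR adjusted p = 0.0127), but with the reads of its pseudogene rows, which are 89.97% of both, it was called higher (0.94 ± 0.16, edgeR adjusted p = 0.00054). On the scale of each experiment, its pseudogene rows had 117 to 192 CPM in EM-mGC and 238 to 262 CPM in the PBS group. Rps10 went from −0.82 ± 0.16 to 0.26 ± 0.18, which did not pass the test. Rps2 was at 0.26 ± 0.56 on its own row and was called higher with pseudogene reads (0.72 ± 0.23, edgeR adjusted p = 0.01645). Among the 17 tested members with at least 20% of their reads on pseudogene rows the median log2 fold change on the own row was −0.33, with 6 lower and 0 higher, and among the other 64 it was 0.06, with 7 lower and 10 higher.

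**Figure D5:**
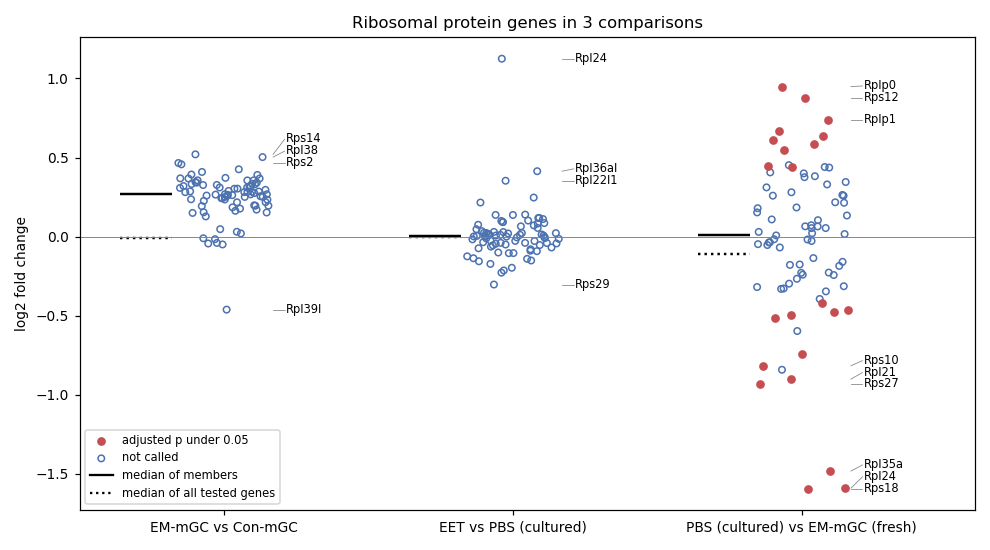
Log2 fold change of each tested ribosomal protein gene in 3 comparisons (81, 80 and 81 genes; Rpl39l, with 0 counts in culture, is left out of the third); filled red points have an adjusted p under 0.05 in edgeR's quasi-likelihood test, and the lines give the median of the members (solid) and of all tested genes (dotted). The cloud lies above 0 in EM-mGC against Con-mGC with no call, around 0 for EET against PBS with no call, and is spread from Rps18 to Rplp0 for PBS against EM-mGC with 23 calls, Rpl39l included.

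Other genes of translation were called in both directions in this comparison. The shares below stand beside the 69.0% of all genes called, 31.1% higher and 37.9% lower. Of 68 tested biogenesis genes 37 rose and 7 fell (median 0.32), with Myc (1.82), the transcription factor that drives ribosome production, Nop2 (1.505) and Rrp12 (1.19) the highest of those called and Taf1a (−1.54), a subunit of the RNA polymerase I selectivity factor, the lowest. Of 29 initiation factors 14 rose and 2 fell (median 0.33), and of 77 genes of the mitochondrial ribosome 32 rose and 9 fell (median 0.21). Among the mTOR and LARP genes 8 of 13 rose and 1 fell, with Eif4ebp1 at 2.09 ± 0.18, Larp1 at 1.36 ± 0.11 and Eif4ebp3 at −2.08 ± 0.45. Eef2, the elongation factor that moves the ribosome along the mRNA, rose by 1.10 ± 0.21, Rack1 and Fau rose by 0.63 and 0.51, and Rps3a1 was at −0.26 ± 0.17. The other TOP mRNAs went both ways, with 2 higher (Vim and Eef2) and 3 lower (Npm1, Nap1l1 and Hnrnpa1).

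Most paralogs lay below the genes they resemble. Per kb, Rpl3l and Rpl10l, known from muscle and testis, were under 0.1 CPM in every group, with at most 4 counts in a library, against 376 and 682 CPM per kb for Rpl3 and Rpl10 in Con-mGC. Rpl39l, known from the male germ line, was at 2.45 ± 2.19 CPM per kb in Con-mGC beside 227 ± 32.9 for Rpl39, and at 0 counts in culture, where Rpl39 was at 226 ± 27.4 in the PBS group. Rpl7l1, which is placed in ribosome assembly, was at 29.8 ± 1.80 beside 610 ± 72.8 for Rpl7. Rpl36al was at 1.45 ± 0.344 beside 301 ± 27.2 for Rpl36a, with 34.0% of its reads on pseudogene rows. Rpl22l1 (72.7 ± 12.7) was nearest to its partner Rpl22 (94.7 ± 4.39), and both fell in culture, by 0.74 and 0.50 on the log2 scale. The call of Rpl22 was lost without any 1 of the 3 PBS libraries, and that of Rpl22l1 without PBS replicate 1. Rps27 and Rps27l went opposite ways: Rps27 fell and Rps27l, a target of p53, rose from 49.1 to 75.6 CPM in EM-mGC to 86.2 to 91.9 CPM in the PBS group (0.61 ± 0.14, edgeR adjusted p = 0.00259). Per kb, Rps27 went from 693 ± 145 CPM in EM-mGC to 296 ± 9.66 in the PBS group and Rps27l from 130 ± 21.4 to 161 ± 5.17, each on the scale of its own experiment, so Rps27 was the higher of the pair in both groups.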

How the data were processed

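The deposited tables hold raw read counts per gene, made by the authors from stranded poly(A) libraries (paired reads of 150 bases), 1 table for the fresh and 1 for the cultured libraries. The submitters' processing notes name fastp, HISAT2, StringTie and GRCm39, and counting was by featureCounts, and neither its strand setting nor its handling of reads with several positions is given in the sources used here. Groups followed the labels. Each comparison was fitted on its own libraries with edgeR 4.0.16 (R 4.3.3): filterByExpr, TMM factors and quasi-likelihood tests, called at an adjusted p under 0.05 (Benjamini-Hochberg, over all tested genes). PBS against EM-mGC joined the raw counts of both tables. DESeq2 1.42.0 was an alternative. CPM values used TMM factors of each experiment, except for the cell markers, which were scaled to total counts alone. The test was checked on simulated counts in which 200 genes, drawn from all tested genes, were changed by known folds. Of 67 genes changed by 0.5 (log2), it found 6 for EM-mGC against Con-mGC, 43 for EET against PBS and 3 for PBS against EM-mGC. Of 67 genes changed by 1, it found 34, 57 and 30. Members and gene lists were chosen with earlier results of these data known. Genes named by rule are the called members (over 10, the 5 with the largest fold change each way), otherwise the 5 highest and 5 lowest by fold change (mean of at least 1 CPM), the 5 highest and lowest by level, paralog pairs and genes with known roles; the pseudogene examples and other called members were named after their values were seen. Pseudogene rows were matched by blastn to coding sequences of GENCODE vM21, of which 13496 of 13724 rows had a sequence. Adding their reads was an alternative chosen after seeing the data. Same-numbered PBS and EET libraries deviated together by r = 0.0602, 0.098 and −0.0237. P-values measure the spread between these libraries. The limit of 3 counts covers counting error only. Protein sequences were not used here. One gene of the lists is not reported here.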

Additional observations from a re-analysis of the deposited data

Results flagged for a closer look

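Among 78 groups of 5 fresh libraries (38 genes and the share of counts, in Con-mGC and in EM-mGC), 15 had a highest library that stood apart from the other 4 by Dixon's criterion, which chance would give in about 1 of 20 groups. All 15 were Con replicate 1 or EM replicate 3, and none was a lowest library. The groups are not independent, since the members move together. The genes include some named for their fold changes, such as Rpl39 in EM-mGC against Con-mGC, so the rate of 1 in 20 may not hold for them. In Con replicate 1 these were Rpl10 (737 CPM, the next highest Con library at 557), Rpl26 (185, next 54.4), Rpl3 (683, next 501), Rpl8 (682, next 507) and Rps6 (688, next 528). In EM replicate 3 they were Rpl10 (952 CPM, the next highest EM library at 655), Rpl22 (319, next 220), Rpl35a (77.7, next 53.7), Rpl36a (262, next 180), Rpl39 (280, next 186), Rpl7 (1085, next 784), Rplp1 (853, next 469), Rps28 (333, next 223), Rps29 (334, next 202) and Rps4x (1226, next 824).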

How the results depend on the processing

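For EM-mGC against Con-mGC no member was called under any alternative run, and the median log2 fold change ran from 0.13 to 0.36 with 1 library left out and from 0.26 to 0.28 otherwise. For EET against PBS, without a filter on low counts 6 members were called (Rpl22l1, Rpl26 and Rps27a higher, Rpl38, Rps28 and Rps29 lower). The fit with the replicate number as a block called 1, Rps29, and with 1 library left out the count ran from 0 to 1 (Rpl26 higher without PBS replicate 1, Rps2 lower without PBS replicate 2) and the median from −0.04 to 0.04; same-numbered libraries did not all deviate together, PBS replicates 1 and 2 correlating best with their own number and PBS replicate 3 with EET replicate 1, and the block called no member in EM-mGC against Con-mGC. For PBS against EM-mGC, which has no paired fit because the experiments differ, the count ran from 14 to 40 with 1 library left out: 40 (27 higher, 13 lower) without EM replicate 3, and 14, 15 and 14 without PBS replicates 1, 2 and 3. The median ran from −0.07 to 0.12 there and was −0.24 with upper-quartile factors, which kept all 13 lower calls and 3 of the 10 higher ones. Adding matched pseudogene reads, an alternative chosen after seeing the data, kept 8 of 10 higher and 11 of 13 lower calls. Among the genes named by fold change, directions reversed for Rpl34 (0.98 with reads of pseudogenes named after it, 0.94 with matched rows), Rps10 (0.26 and 0.26), and, among values not called, Rpl26 in EET against PBS (−0.045 with matched rows) and the lowest genes of EM-mGC against Con-mGC: Rpl29 (0.25 with matched rows), Rpl21 (0.018 with named and 0.29 with matched rows) and Rpl24 (0.11 with matched rows, 0.17 with the block). Matched rows also turned Rpl26 in PBS against EM-mGC (−0.84 to 0.064), Rpl34 in EM-mGC against Con-mGC (−0.01 to 0.38) and Rpl21 in EET against PBS (−0.12 to 0.015), none called, and other uncalled values. With 1 library left out, Rpl39l ran from −0.79 to 0.23, Rpl29 from −0.12 to 0.053, Rpl21 from −0.11 to 0.056, Rpl13a from −0.12 to 0.032 and Rpl24 from −0.31 to 0.16. The member share relative to nuclear coding reads was 3.0% in Con-mGC, 3.55% in EM-mGC, 2.91% in the PBS group and 2.93% in the EET group.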
